A study of Mus musculus with 44 samples.

Results

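Of the 55335 genes in the deposited table, 10 that code for heat shock proteins and their helpers are described here: the HSP70 proteins Hspa1a, Hspa1b, Hspa8 and Hspa5, the HSP110 protein Hsph1, the HSP90 proteins Hsp90aa1 and Hsp90ab1, the HSP40 cochaperones Dnajb1 and Dnajb5, and the transcription factor Hsf1. They were chosen by name, and each symbol matched 1 Ensembl identifier through the GENCODE annotation of GRCm38. All 10 passed the filter on low counts in each of the 8 comparisons, with the lowest count in any library being 466, for Hspa1a.

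The libraries hold ribosome-bound mRNA of hippocampal cells from Emx1-NuTRAP mice. In these animals an Emx1-IRES-Cre driver, active mostly in excitatory neurons, switches on a tag on the ribosomes and another on the nuclear envelope, and the ribosomes were pulled down by their tag together with the mRNA on them (TRAP-seq). All animals were male and carried both transgenes. The ELE (early-life exercise) mice were pair-housed with a running wheel from postnatal day 21 to 41 and the sedentary mice in standard cages, and tissue was taken the day after by cervical dislocation. In simultaneous isolation (SIT) both hippocampi of a mouse were combined, minced with a razor blade and passed over beads for nuclei before the ribosomes were captured, which gave 4 ELE and 4 sedentary libraries. In separate isolation 1 hippocampus of a mouse was homogenized with a motorized pestle and cleared with plain beads before ribosome capture, with no step for nuclei, which gave 3 ELE and 3 sedentary libraries from the left side and as many from the right, each from a different mouse.

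Each library held between 45895097 and 65767802 counts. Of the SIT libraries, 3 ELE (mice NT6.303, TG7.4.1, TG7.4.2) and 2 sedentary ones (NT6.305, NT6.306) entered the comparisons. The other SIT libraries were left out, as they were in the study. One of them, ELE mouse NT6.304, had Fos at 621 CPM (counts per 1000000 of the scaled library size) against 4.96 to 34.9 CPM in the remaining 19 libraries. In the others, both from sedentary mice (NT7.2.3, NT7.2.4), mitochondrial genes took 8.64% and 9.64% of counts against 0.0704% to 0.523% elsewhere. The summed level of 5 excitatory neuron markers lay between 6493 and 10051 CPM over the 17 libraries compared, and that of 6 inhibitory neuron markers between 40.7 and 75.8 CPM. Markers of oligodendrocytes (2279 to 3765 CPM) and astrocytes (1682 to 5123 CPM) were also present, so transcripts of other cell types were in the libraries too. Fewer cells of a type and less RNA per cell cannot be told apart in such libraries.

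By Hspb1, a small heat shock protein, 5 libraries stood apart, 2 of them among those already named. Hspb1 was at 67.1 CPM in NT6.304, 69.4 in TG9.1.4 (ELE, left), 21.0 in TG9.2.1 (ELE, right), 58.1 in TG9.1.1 (sedentary, right) and 14.2 in NT7.2.3, and at or below 3.15 CPM in the other 15 libraries. Socs3, a feedback inhibitor of cytokine signalling, was at 6.78 to 43.9 CPM in the same 5 libraries and at 0.486 to 1.48 CPM in the rest. Both genes were singled out after their values were seen, and results that rest on these libraries (the Hspb1-high libraries) are given with and without them.

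Chaperones of the HSP70 family bind unfolded stretches of other proteins and release them as they turn over ATP. HSP40 proteins such as Dnajb1 deliver the substrates and stimulate the ATP turnover, HSP110 proteins such as Hsph1 exchange the nucleotide, and HSP90 proteins act on nearly folded clients such as kinases and steroid receptors. Heat and other protein damage free the factor Hsf1, which binds inverted repeats of GAA and TTC (heat shock elements) and switches on genes such as Hspa1a and Hspa1b, while damage inside the endoplasmic reticulum induces Hspa5 through a different element. In neurons several of these genes are also known to respond to activity.

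RefSeq promoter windows (250 bases before to 50 after a transcription start, GRCm38.p6) were at hand for 6 of the 10 members. They were searched for elements of the 2 best-known ways of induction, among other motifs. For the matches described, a 30-base stretch is given in the direction of transcription, with the bases of the motif in capitals. Hspa5 carried the endoplasmic reticulum stress element (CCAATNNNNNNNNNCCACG, either strand), which 0.119% of 32851 promoter windows hold, at positions −65 to −47 from its start. Hsph1 carried 3 adjoining heat shock units (GAANNTTCNNGAA, either strand), held by 0.603% of windows, 15 to 27 bases after a start. Hspa1b and Hspa1a held the 2-unit form (GAANNTTC, which reads the same on both strands and is contained in the 3-unit form), present in 7.86% of windows, in an identical stretch with the motif at positions −104 to −97.
Hspa5, chr2:34772019-34772048, plus strand: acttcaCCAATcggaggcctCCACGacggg
Hsph1, chr5:149636280-149636309, minus strand: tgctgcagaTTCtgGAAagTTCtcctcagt
Hspa1b, chr17:34959324-34959353, minus strand: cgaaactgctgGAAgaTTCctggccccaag
Hspa1a, chr17:34972242-34972271, minus strand: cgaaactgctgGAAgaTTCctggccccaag
The 3 windows of Dnajb5 and the 2 of Dnajb1 held none of the motifs searched, which were these, the other 2-unit form TTCNNGAA, the cyclic AMP response element TGACGTCA, the CArG box and TATAAA. That says only that these letters are not in these windows.

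Levels between genes were compared per kilobase of exon. Over the 17 libraries the abundant cytosolic chaperones led, with Hsp90ab1 at 493 ± 35.9 CPM per kb (mean ± SD), the constitutive HSP70 Hspa8 at 299 ± 29.0 and Hsp90aa1 at 213 ± 16.6. Hsph1 (41.3 ± 5.70 CPM per kb), Hspa5 (41.1 ± 5.20) and Dnajb5 (26.7 ± 6.12) followed, and then Dnajb1 (12.5 ± 1.75). The genes best known as heat-inducible were the lowest, with Hspa1b at 6.69 ± 0.847 and Hspa1a at 4.08 ± 0.776 CPM per kb on either side of Hsf1 at 5.70 ± 0.438. Neighbours in this order whose ranges overlapped were Hspa8 and Hsp90aa1, Hsph1 and Hspa5, Hspa5 and Dnajb5, Hspa1b and Hsf1, and Hsf1 and Hspa1a. By the ratio of the highest to the lowest library Dnajb5 varied most, its highest library being 2.28 times its lowest (coefficient of variation 22.9%), followed by Hspa1a (1.86 times) and Hsph1 (1.65 times), and Hsf1 varied least (1.31 times), while by the coefficient of variation Hsp90ab1 varied least (7.27%, against 7.70% for Hsf1).

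**Figure D1:**
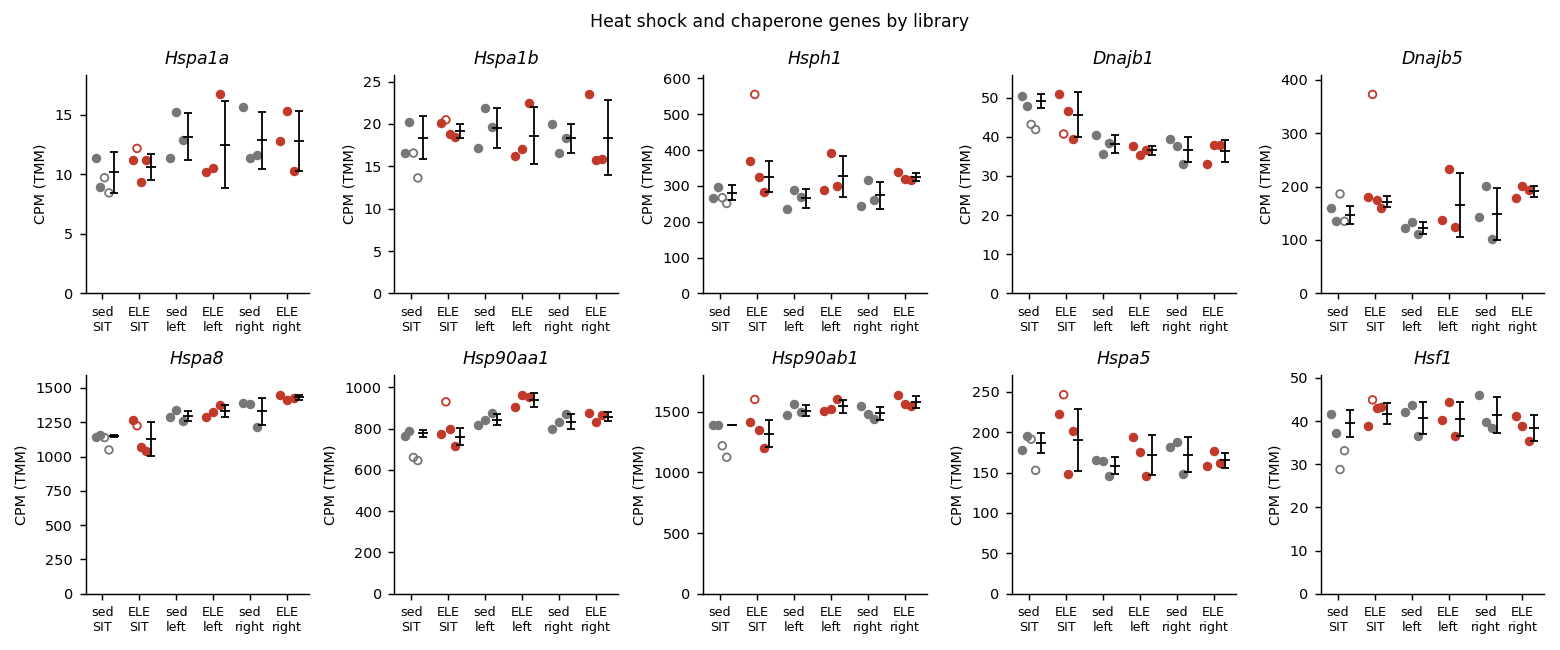
Level of each of the 10 genes in each library, in CPM on a linear axis from 0, by group (grey sedentary, red ELE), with the mean ± SD of the libraries compared in black and open circles for the SIT libraries left out. The points of Dnajb5 spread the widest among the 17 libraries compared, by 2.28 times, and those of Hsf1 the least, by 1.31 times.

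Several of the members share sequence with other genes, so their counts may hold reads of a copy or have lost some to it. Hspa1a and Hspa1b lie next to each other on the minus strand of chromosome 17 (chr17:34969190-34972156 and chr17:34956436-34959238), their open reading frames are 99.4% identical, and 48.6% and 49.9% of all 100-base windows of their transcripts occur in another gene, nearly all of them in each other. For Hspa8 (chr9:40800984-40810087, plus strand) 62.8% of such windows occur in another gene, mostly the pseudogene Gm15459, and for Hsp90aa1 (chr12:110690605-110702728, minus strand) 47.5%, mostly Gm12346. The windows of the other 6 members occurred in no other gene.

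The study asked whether exercise in adolescence changes the mRNAs being translated in these neurons. The heat-inducible HSP70 genes did not pass the test in any comparison of ELE with sedentary mice, and the 2 members with the largest differences were Hsph1 and Dnajb5. The cutoff for calling a gene followed the study's. It took an unadjusted p under 0.05 and a fold change above 1.31 in either direction, here with edgeR's quasi-likelihood test over all genes. With this rule 0 of 10 members were called in SIT, where 3.65% of 18238 genes were, 0 of 10 in the left hippocampus (2.07% of 17750) and 0 of 10 in the right (1.97% of 17570). With the 12 left and right libraries fitted together, 1 of 10 was called, Dnajb5, higher in ELE, where 1.97% of 18283 genes were called in either direction and 0.771% as higher. No member passed a Benjamini-Hochberg adjusted p of 0.05 in any of the 4 fits, in which 0%, 0%, 0% and 0.00547% of all genes did. The median log2 difference over the 10 members was 0.04 in SIT, 0.04 on the left, 0.02 on the right and 0.05 with both sides together, against 0.001, 0.004, −0.005 and −0.001 over all genes tested.

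Hsph1, on the minus strand at chr5:149614287-149636376, codes for the HSP110 that recharges HSP70. In the left hippocampus its levels were 289, 391 and 299 CPM in ELE mice TG7.3.2, TG9.1.4 and TG9.2.2, and 237, 290 and 268 CPM in sedentary mice TG7.3.4, TG9.1.2 and TG9.2.4. In the right they were 338, 321 and 316 CPM in ELE mice TG7.3.1, TG9.1.3 and TG9.2.1, and 244, 316 and 260 CPM in sedentary mice TG7.3.3, TG9.1.1 and TG9.2.3. The groups overlapped by 1 library on the left, and on the right TG9.1.1 stopped just short of the lowest ELE library. In SIT the ELE libraries gave 369, 324 and 283 CPM and the sedentary ones 266 and 296 CPM, which overlap.

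The log2 difference in Hsph1, ELE minus sedentary, was 0.30 (SE 0.124, adjusted p = 0.960) on the left and 0.25 (SE 0.103, adjusted p = 0.9998) on the right by edgeR. With both sides together it was 0.28 (SE 0.0807, adjusted p = 0.902). In these 3 fits the unadjusted p was under 0.05 and the difference was below the fold threshold. A two-sided exact permutation test over the 400 arrangements within each side gave p = 0.015 for this gene alone. In SIT the difference was 0.21 (SE 0.115, adjusted p = 0.939), and with all 8 SIT libraries it was 0.50 (SE 0.187, adjusted p = 0.490 by edgeR), which passed the call as did 7.7% of genes. That call rested on NT6.304, at 555 CPM, without which the 7 libraries gave 0.27 (SE 0.117) and no call. On the right 7.66% of all genes had groups that did not overlap in either direction, and the smallest p an exact test of 3 against 3 allows is 0.1. Without the Hspb1-high libraries the difference for both sides together was 0.26 (SE 0.0712, adjusted p = 0.756), while on the left without TG9.1.4 it was 0.16 (SE 0.0895, adjusted p = 0.859) and the unadjusted p was above 0.05.

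Dnajb5, on the plus strand at chr4:42949814-42959425, codes for an HSP40 cochaperone known in heart muscle for a redox-sensitive partnership with histone deacetylases. On the left its levels were 137, 234 and 124 CPM in the ELE mice, in the order given above, and 122, 134 and 112 CPM in the sedentary mice. On the right they were 179, 201 and 193 CPM in the ELE mice and 144, 200 and 103 CPM in the sedentary mice. A single library was high in the left ELE group, TG9.1.4, and a single one in the right sedentary group, TG9.1.1, and both are among the Hspb1-high libraries. In SIT the ELE libraries stood at 180, 175 and 160 CPM and the sedentary ones at 159 and 136 CPM, without overlap, as for 22.1% of all genes.

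The log2 difference in Dnajb5 was 0.43 (SE 0.212) on the left, 0.36 (SE 0.192) on the right and 0.21 (SE 0.106) in SIT, none of which passed the test (adjusted p = 0.960, 0.9998 and 0.928 by edgeR). With both sides together it was 0.40 (SE 0.155, adjusted p = 0.902), which passed the call, and the exact permutation test for this gene alone gave p = 0.065. The call was lost without any one of TG9.1.3 (0.38), TG9.2.3 (0.31), TG9.1.4 (0.25) or TG9.2.4 (0.37), and without the 3 Hspb1-high libraries of this comparison, where the difference of 0.34 (SE 0.116, adjusted p = 0.818) was below the fold threshold and 2.2% of genes were called. On the right, leaving out TG9.2.1 and TG9.1.1, the 2 Hspb1-high libraries, gave 0.62 (SE 0.156, adjusted p = 0.655), which passed the call as did 3.55% of genes, and so did leaving out TG9.1.1 alone (0.62). On the left, leaving out TG9.1.4 gave 0.11 (SE 0.0929), while the call was made without TG7.3.2 (0.53) or TG9.2.2 (0.60). The left call was also made by DESeq2 (0.43), which called 2.04% of genes, and by edgeR with no filter on low counts (0.43), which called 2.55%.

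The 12 left and right mice fall into 3 sets by the start of their number (TG7.3, TG9.1, TG9.2), each with 1 ELE and 1 sedentary mouse per side, and the study divided litters between the housing groups. Whether a set is a litter is not stated in the sources used here. Between mice of the same set and side, ELE was higher in 6 of 6 pairs for Dnajb5, by 0.0043 to 0.91 on the log2 scale. For Hsph1 it was also higher in 6 of 6, by 0.023 to 0.47, and 4.77% of all genes had all 6 differences in 1 direction. With the set as a block, a fit chosen after seeing the data, Dnajb5 differed by 0.41 (SE 0.155, adjusted p = 0.9999 by edgeR) on the right and passed the call as did 1.77% of genes. With both sides together the blocked difference was 0.40 (SE 0.102, adjusted p = 0.657) and passed as well, as did 2.37% of genes, and on the left it was 0.38 (SE 0.133), below the fold threshold.

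In SIT, the libraries of NT6.303, NT6.304, NT6.305 and NT6.306, whose numbers begin alike in both groups, gave 0.70 for Hsph1 and 0.89 for Dnajb5 (adjusted p = 0.648 for both), each of which passed the call as did 6.65% of genes. Both calls rested on NT6.304, at 555 CPM for Hsph1 and 373 CPM for Dnajb5, without which the remaining ELE library and the 2 sedentary ones gave 0.38 and 0.27 and no call.

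**Figure D2:**
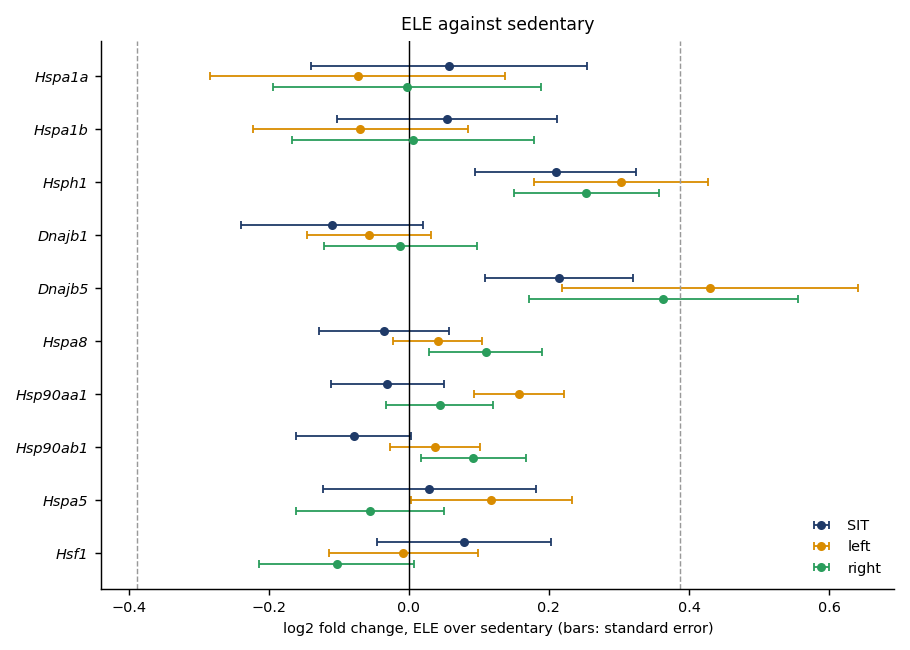
Log2 fold change of each member, ELE over sedentary, with its standard error, in SIT, left and right libraries, with dashed lines at the fold threshold of 1.31 in either direction. Hsph1 lies above 0 in all 3 (0.21, 0.30 and 0.25), as does Dnajb5 (0.21, 0.43 and 0.36), and the other members lie closer to 0.

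Among the constitutive chaperones the differences were small. Hsp90aa1, the more inducible of the cytosolic HSP90 genes, was at 903, 964 and 951 CPM in the left ELE libraries and at 818, 840 and 874 CPM in the left sedentary ones, so the groups did not overlap, as for 10.7% of genes. Its log2 difference was 0.16 (SE 0.0640, adjusted p = 0.960 by edgeR) on the left, 0.04 (SE 0.0759) on the right and 0.10 (SE 0.0444, adjusted p = 0.911) with both together, where the exact permutation test gave p = 0.025. On the left each of the 6 fits that left out 1 library gave an unadjusted p above 0.05 with a difference between 0.13 and 0.18. Hspa8 on the right was at 1451, 1412 and 1430 CPM in ELE and at 1392, 1380 and 1213 CPM in sedentary mice, without overlap, as for 7.66% of genes there. Its log2 difference of 0.11 (SE 0.0806, adjusted p = 0.9998 by edgeR) did not pass the test. With both sides together Hspa8 differed by 0.07 (SE 0.0465) and Hsp90ab1 by 0.06 (SE 0.0429). In SIT the log2 differences were −0.04 (SE 0.0926) for Hspa8, −0.03 (SE 0.0807) for Hsp90aa1 and −0.08 (SE 0.0820) for Hsp90ab1, and with all 8 SIT libraries they turned to 0.03, 0.16 and 0.11. Without NT6.304 these were −0.0004, 0.09 and 0.04.

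The remaining members showed no difference that passed the test. For Hspa1a the log2 difference with both sides together was −0.04 (SE 0.146), with 12.6 CPM on average in ELE and 13.0 CPM in sedentary mice, and for Hspa1b it was −0.03 (SE 0.118), at 18.5 and 18.9 CPM. Hspa5 differed by 0.03 (SE 0.0810), Dnajb1 by −0.04 (SE 0.0657) and Hsf1 by −0.06 (SE 0.0747). In SIT the differences of these 5 were 0.06 (SE 0.197), 0.06 (SE 0.157), 0.03 (SE 0.152), −0.11 (SE 0.130) and 0.08 (SE 0.124) in the same order. The signs of Hspa1a, Hspa1b and Hspa5 turned when single libraries were left out, so no direction is given for them.

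Markers of the choroid plexus, an epithelium next to the hippocampus, were called as lower in ELE mainly in SIT and on the right. Over all genes 3.65%, 2.07%, 1.97% and 1.97% were called in either direction in SIT, on the left, on the right and with both sides together. Of 6 choroid plexus markers, 4 were called as lower in ELE in SIT and 0 on the left. On the right 5 of the 5 tested were, and 1 with both sides together. Their summed level was 130 to 576 CPM in the ELE SIT libraries and 590 to 672 CPM in the sedentary ones, 25.9 to 1003 CPM and 31.3 to 1290 CPM on the left, and 17.3 to 43.5 CPM and 35.1 to 1172 CPM on the right. On the right 2 of 4 endothelial markers, Cldn5 (−2.45) and Tek (−2.36), and 1 of 5 microglial ones, Cx3cr1 (−1.65), were called as lower in ELE, and Tek with both sides together too (−2.24). The endothelial sum on the right was 1.07 to 2.91 CPM in ELE and 1.37 to 22.9 CPM in sedentary mice, and the microglial sum 2.63 to 3.38 and 2.65 to 4.44 CPM. Of 6 inhibitory neuron markers 1 was called as lower in SIT, Pvalb, and 1 as higher on the right, Slc32a1 (1.15). No astrocyte, oligodendrocyte or excitatory neuron marker was called in these 4 comparisons. The part of these markers in the differences of the members was not tested.

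Left and right hippocampi were compared to ask whether hemisphere matters. Of the 10 members 0 were called between sides, where 1.14% of 18283 genes were, and 0 of 10 for the interaction of exercise with hemisphere (2.2% of 18810). Dnajb5 had the largest difference, −0.24 (SE 0.155, adjusted p = 0.9999 by edgeR) for left minus right, and without TG9.1.4 this became −0.39 (SE 0.127, adjusted p = 0.909) and passed the call. Its interaction term, 0.07 (SE 0.323, adjusted p = 0.99996), became −0.52 (SE 0.190, adjusted p = 0.845) without the 3 Hspb1-high libraries and passed the call, as did 4.54% of genes. The sign of this term for Dnajb5 depended on these libraries.

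The study also asked whether SIT yields the same mRNA profile as separate isolation. The isolation methods differed together with the sets of mice, the buffers and the use of 1 or both hippocampi, which cannot be told apart here. Dnajb1, the HSP40 that drives HSP70 in the heat shock response, was higher in SIT than in separate libraries in sedentary and in ELE mice at an adjusted p under 0.05. The abundant cytosolic chaperones Hspa8, Hsp90aa1 and Hsp90ab1 passed that test as lower in SIT in ELE mice, though not without 1 library, TG7.4.2, and did not pass it in sedentary mice. These 4 of 10 members did not overlap between the isolation methods in sedentary mice or in ELE mice, where 29.6% and 15.1% of all genes did not. One member was called in sedentary mice, Dnajb1, where 15.5% of 18911 genes were called, and 0 in ELE mice, where 12.8% of 18478 were. At an adjusted p under 0.05 alone, 1 of 10 passed in sedentary mice (13.6% of genes) and 4 of 10 in ELE mice (9.3%).

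Dnajb1 was at 50.4 and 47.9 CPM in the sedentary SIT libraries and between 33.1 and 40.4 CPM in the 6 sedentary separate ones. Its log2 difference, SIT minus separate, was 0.41 (SE 0.0879, adjusted p = 0.0107 by edgeR) in sedentary mice. In ELE mice it was at 50.8, 46.7 and 39.5 CPM in SIT and between 33.1 and 38.0 CPM in separate libraries, a difference of 0.33 (SE 0.0934, adjusted p = 0.0458). The call was made in ELE mice without TG7.4.2 (0.42). In sedentary mice it was lost without TG9.2.3 (0.37), without NT6.305 (0.37, which leaves 1 sedentary SIT library) and with all 4 sedentary SIT libraries (0.31), and the direction did not change in any of these fits.

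Hspa8 was at 1266, 1071 and 1037 CPM in the ELE SIT libraries and between 1287 and 1451 CPM in the ELE separate ones. The difference was −0.29 (SE 0.0721, adjusted p = 0.0253 by edgeR) in ELE mice and −0.18 (SE 0.0686, adjusted p = 0.106) in sedentary mice. Hsp90aa1 differed by −0.24 (SE 0.0662, adjusted p = 0.0428) and Hsp90ab1 by −0.24 (SE 0.0626, adjusted p = 0.0317) in ELE mice, and both by −0.10 in sedentary mice (adjusted p = 0.338 and 0.335). Without TG7.4.2 the adjusted p of the 3 genes in ELE mice lay between 0.0866 and 0.133. The summed level of the 5 excitatory neuron markers was 6493 to 7563 CPM in SIT and 7743 to 10051 CPM in separate libraries. Its members did not move together. In ELE mice Camk2a was called as lower in SIT (log2 difference −0.56) and Neurod6 as higher (0.39), while Slc17a7 (−0.19), Emx1 (−0.11) and Neurod2 (0.04) were not called, and in sedentary mice 1 of the 5 was called, Camk2a (−0.67). Of 5 astrocyte markers 4 were called as lower in SIT in sedentary mice and 3 in ELE mice, and of 6 inhibitory neuron markers 6 and 0 were called as higher. The part of these markers in the differences of the members was not tested.

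**Figure D3:**
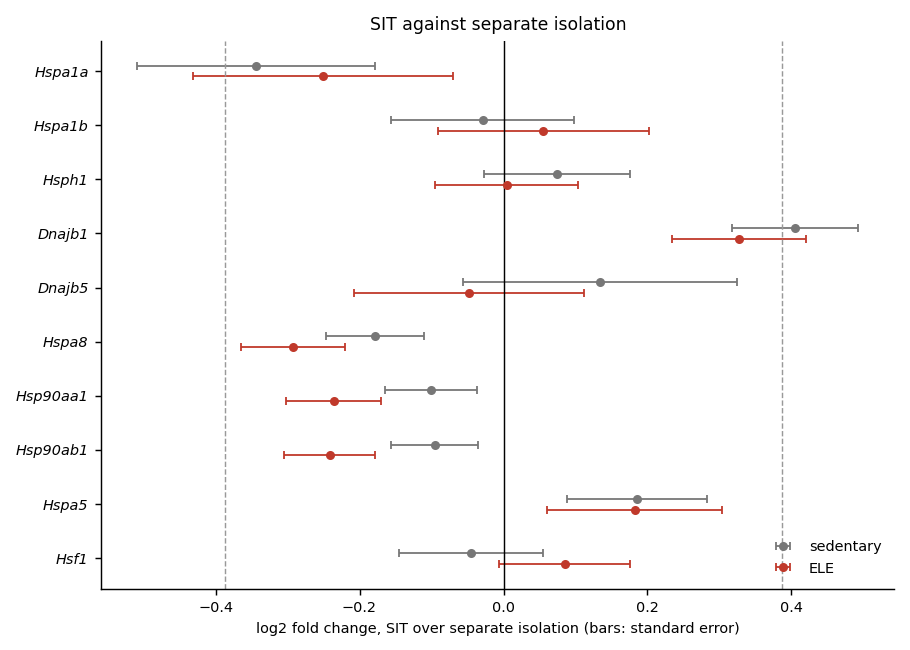
Log2 fold change of each member, SIT over separate isolation, with its standard error, in sedentary and in ELE mice, with dashed lines at the fold threshold of 1.31 in either direction. Dnajb1 lies above 0 in both (0.41 and 0.33), and Hspa8, Hsp90aa1 and Hsp90ab1 lie below 0 in both.

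Hspa1a and Hspa1b did not follow Dnajb1. The log2 difference between SIT and separate isolation was −0.34 (SE 0.165, adjusted p = 0.196 by edgeR) for Hspa1a in sedentary mice and −0.25 (SE 0.181, adjusted p = 0.444) in ELE mice, and −0.03 (SE 0.127) and 0.06 (SE 0.147) for Hspa1b. With all 4 sedentary SIT libraries the value for Hspa1a was −0.42 (SE 0.137, adjusted p = 0.0662) and passed the call as did 15.9% of genes. Hspa5, Hsph1, Dnajb5 and Hsf1 did not pass the test in either, with 0.19, 0.07, 0.13 and −0.05 in sedentary mice and 0.18, 0.005, −0.05 and 0.09 in ELE mice.

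Other genes of the same pathways were counted over lists of their known roles. Of 17 further cytosolic heat shock response genes, 1 was called as higher in ELE in SIT, Bag3, an HSP70 cochaperone that steers clients to autophagy (log2 difference 0.50, with 12.2, 9.05 and 11.3 CPM against 7.76 and 7.62 CPM). On the left 2 were, Hspb1 (5.58) and Bag3 (0.86), and both rested on TG9.1.4, without which they were at 1.31 and 0.28 and did not pass. On the right and with both sides together 0 of 17 were called. Over all genes 1.54%, 1.1%, 0.746% and 0.771% were called as higher in SIT, on the left, on the right and with both sides together. The medians of this list were 0.05, 0.12, 0.01 and 0.09 in the order SIT, left, right and together. None of the 26 constitutive cytosolic chaperones, 21 genes of the endoplasmic reticulum unfolded protein response, 8 mitochondrial chaperones, the heat shock factors Hsf2 and Hsf4, the HSF1-binding protein Hsbp1, or 4 glucocorticoid-induced genes was called in any of these 4 comparisons. With 3.65%, 2.07%, 1.97% and 1.97% of all genes called, lists of this size would hold few or no called genes.

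Between isolation methods the same lists were counted at an unadjusted p under 0.05 alone, and then with the fold threshold. Of the 17 heat shock response genes, 6 were higher and 2 lower in SIT at p under 0.05 in sedentary mice, and 5 and 3 in ELE mice, where 12.5% and 15.8% of all genes were higher and lower in sedentary mice and 10.7% and 13.9% in ELE mice. Chordc1, an HSP90 cochaperone, was higher in SIT by 0.59 in sedentary mice (adjusted p = 0.00130 by edgeR) and by 0.55 in ELE mice (adjusted p = 0.00623), with 50.1 to 68.7 CPM in the SIT libraries and 33.3 to 43.9 CPM in the separate ones. The constitutive chaperones gave 12 higher and 4 lower of 26 in sedentary mice (median 0.15) and 6 and 6 in ELE mice (median 0.07), and the HSP90 cochaperone Ptges3 was the 1 past the fold threshold, at 0.47 in sedentary mice. Of the heat shock list Hspb1 was called as lower in SIT in ELE mice (−4.69), and it was at −0.19 without the Hspb1-high libraries TG9.1.4 and TG9.2.1. Bag3 was called as lower in sedentary mice (−0.51), and not without TG9.1.1 (−0.34). In ELE mice Dnajb4 (0.41), an HSP40, and Ddit3 (0.62), the stress transcription factor CHOP, were higher in SIT and the mitochondrial HSP90 Trap1 (−0.47) lower.

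Whether the members moved with signs of neuronal activity, temperature or tissue handling was asked of 3 lists. Of 10 activity-induced genes, 4 were called as higher in ELE in SIT (Arc 0.77, Nr4a1 0.74, Bdnf 0.44 and Junb 0.39), 1 on the left (Fos 1.30, and not without TG9.1.4, at 0.36), 5 on the right (Egr2 2.58, Fos 0.94, Egr1 0.69, Egr4 0.59 and Nr4a1 0.50) and 3 with both sides together (Egr2 1.85, Fos 1.12 and Egr1 0.47). The shares of all genes called as higher were those given for the heat shock list (1.54%, 1.1%, 0.746% and 0.771%). The medians of this list were 0.34, 0.30, 0.60 and 0.42. The cold-inducible RNA-binding proteins Cirbp and Rbm3 were called in 0 of these comparisons and differed by −0.03 (SE 0.0905) and −0.12 (SE 0.134) with both sides together. Of 10 genes known to rise during tissue handling, 3 were called as higher in ELE on the left (Socs3 3.83, Atf3 2.52 and Gadd45g 0.93), beside 1.1% of all genes. With both sides together 1 was (Atf3, 1.59), beside 0.771%, and 0 were in SIT and on the right. The rest of that list on the left, none called, was at 0.79 for Zfp36, 0.64 for Gadd45b, 0.24 for Klf6 and 0.22 for Ier3. Jun (−0.04), Ier2 (−0.10) and Dusp1 (−0.21) were below 0.

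Of the 3 called on the left, Socs3 and Gadd45g did not pass without TG9.1.4, at 0.73 and 0.26, and Atf3 did, at 1.37. Atf3, a stress- and injury-induced transcription factor, was at 1.24, 4.17 and 0.491 CPM in the left ELE libraries against 0.330, 0.371 and 0.313 CPM in the sedentary ones. On the right it was at 1.33, 1.45 and 1.73 CPM in ELE mice against 0.526, 1.81 and 0.431 CPM in sedentary mice, TG9.1.1 again being the exception. Fos, the immediate early gene, was at 11.4, 34.9 and 6.83 CPM in the left ELE libraries and at 4.96, 7.24 and 9.28 CPM in the sedentary ones.

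**Figure D4:**
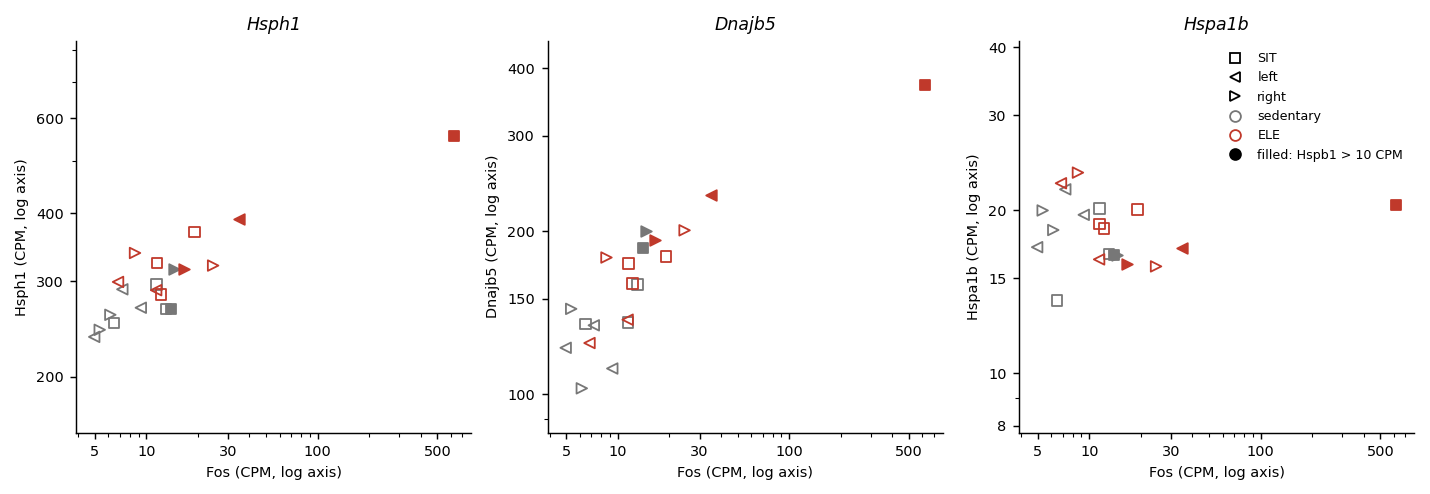
CPM of Hsph1, Dnajb5 and Hspa1b against CPM of Fos in all 20 libraries, on log axes, with markers for SIT, left and right, grey for sedentary and red for ELE, and filled markers for the Hspb1-high libraries. Among the 12 left and right libraries Hsph1 and Dnajb5 rise with Fos (r = 0.83 and 0.82) and Hspa1b does not (r = −0.56), and the point at the far right is NT6.304, with Fos at 621 CPM.

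Covariation was measured over the 12 separate libraries, as Pearson's r of log2 CPM with 100000 permutations of the library labels. The family held 115 relations, 45 between members and 70 between a member and 1 of Fos, Arc, Npas4, Cirbp, Rbm3, Jun and Atf3, and 5 passed a Benjamini-Hochberg adjusted p of 0.05. All 5 were among Hsph1, Dnajb5, Fos and Atf3. Dnajb5 and Atf3 gave r = 0.91 (permutation p = 4e-05, adjusted p = 0.0046; Spearman's rho 0.92, adjusted p = 0.0046). Hsph1 gave r = 0.87 with Atf3 (permutation p = 0.0003, adjusted p = 0.0172; rho 0.78) and 0.83 with Fos (permutation p = 0.00065, adjusted p = 0.0249; rho 0.80). Dnajb5 and Fos gave 0.82 (permutation p = 0.00098, adjusted p = 0.0282; rho 0.76), and Hsph1 and Dnajb5 gave 0.81 with each other (permutation p = 0.00135, adjusted p = 0.0310; rho 0.78). For the last 4 the adjusted permutation p of rho was between 0.102 and 0.112, so only the relation of Dnajb5 with Atf3 passed by both measures. High r was not particular to the members. Over the 17 libraries, after subtracting group means, Dnajb5 was at rank 761 of 9563 genes by r with Hsph1 (0.66). Hsph1 was at rank 850 by r with Dnajb5.

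The 5 relations stayed positive at lower r with extreme libraries left out, which does not settle how far they rest on those libraries. Leaving out the 2 libraries farthest from the median of the first gene, TG9.1.4 among them each time, the 5 values of r were 0.88, 0.74, 0.65, 0.69 and 0.74 in the order above, with unadjusted permutation p between 0.00088 and 0.0409. Within the left libraries, TG9.1.4 included, they lay between 0.88 and 0.95. Within the right libraries, TG9.1.1 included, they lay between 0.73 and 0.93, with 6 libraries each. Over the 9 libraries with Hspb1 at or below 10 CPM they were 0.82, 0.73, 0.66, 0.66 and 0.67. After the mean of each group of 3 was subtracted from its libraries, 1 of the 115 relations passed, Dnajb5 with Atf3 (r = 0.91, adjusted permutation p = 0.0207). The highest r between members was then that of Hspa1b with Hsp90ab1 (0.85, adjusted permutation p = 0.0619). Below it were Hspa1a with Hsp90ab1 (0.77, adjusted permutation p = 0.0716), Hsph1 with Dnajb5 (0.76, adjusted permutation p = 0.0716) and Hspa8 with Hsp90ab1 (0.75, adjusted permutation p = 0.0619). Hspa5 with Hsp90aa1 gave −0.75 (adjusted permutation p = 0.0716).

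No other pair of members passed. Over the 45 pairs of members in the 12 separate libraries r ranged from −0.54 to 0.81 with a median of 0.12. Hspa8 and Hsp90ab1 gave r = 0.78 (permutation p = 0.0029, adjusted p = 0.0556; rho 0.69), and the near-identical Hspa1a and Hspa1b gave 0.61 (permutation p = 0.0384, adjusted p = 0.436; rho 0.57). Hspa1b with Fos gave r = −0.56 (permutation p = 0.0576, adjusted p = 0.509; rho −0.62). No relation with Cirbp, Rbm3, Arc, Npas4 or Jun passed, the nearest being Hsf1 with Cirbp at r = −0.67 (permutation p = 0.0179, adjusted p = 0.257; rho −0.78). In the Hspb1-high libraries Hspa1a was at 9.70 to 12.2 CPM and Hspa1b at 15.9 to 20.5 CPM, within their ranges of 8.43 to 16.7 and 13.6 to 23.5 CPM in the others. Among the separate libraries alone, the median of Hspa1a was 10.6 CPM in the Hspb1-high ones and 12.9 CPM in the others. That of Hspa1b was 16.6 and 19.6 CPM. Over the 8 SIT libraries, of which NT6.304 and the NT7.2 pair stood apart, 0 of 115 relations passed, and r over the 45 pairs of members ranged from −0.32 to 0.95 with a median of 0.59. These r values are not read further, since the other SIT libraries were 5.

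**Figure D5:**
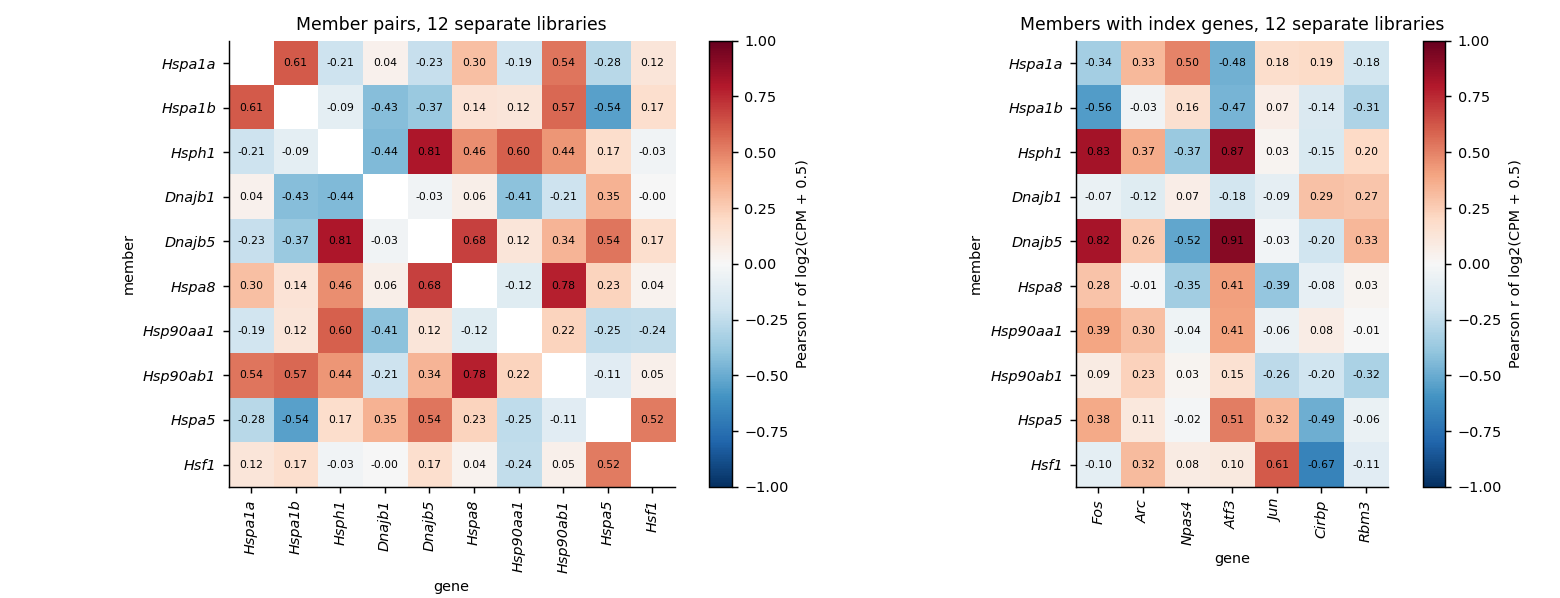
Pearson's r of log2(CPM + 0.5) between members (left), and between members and 7 single genes of activity, temperature and tissue handling (right), over the 12 separate libraries, with each value printed in its cell. The strongest positive cells are those among Hsph1, Dnajb5, Fos and Atf3, and the median over the 45 pairs of members is 0.12.

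Genes whose pattern was most like that of 3 members were ranked over the 17 libraries among the 9563 genes that averaged 10 CPM or more, after subtracting group means. These r values are descriptions, since libraries share depth and composition and each list is the top of so many genes. For Hspa5 the nearest were Fbll1 (0.90), Pdia3 (0.88), Xbp1 (0.85), Nagpa (0.84) and Selenok (0.83), of which Pdia3 is an endoplasmic reticulum disulphide isomerase and Xbp1 a transcription factor of the unfolded protein response. For Hspa8 they were Sox10 and Gm15459 (0.88 each), Rusc2 (0.86), Arhgef18 and Gm17322 (0.85 each), of which Gm15459 is the pseudogene that shares its sequence. For Hspa1b they were Phlpp1 and Cables2 (0.88 each), Evc2 and Grin2b (0.87 each) and Epha6 (0.84), while Hspa1a came at rank 806 with r = 0.48.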

How the data were processed

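The sources are TRAP-seq libraries of 20 mice. As stated in the study's methods, the authors aligned reads to GRCm38 with STAR 2.7.3a, removed duplicates with Picard 1.87, and counted reads on exons by strand with GenomicAlignments. The table the authors deposited holds these raw counts. Columns were tied to groups through the study's sample table and labels. A table of wild-type libraries, with 24 columns whose names match no labels, was not used.

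Counts were filtered with filterByExpr, scaled by TMM and tested with edgeR 4.0.16 (R 4.3.3) quasi-likelihood fits on the groups compared, with Benjamini-Hochberg adjustment. The standard error is the log2 difference divided by the square root of F. CPM are counts per 1000000 of TMM-scaled library size. Single genes were compared by two-sided exact permutation of log2(CPM + 0.5). The SIT libraries the study compared were identified from the mean normalized counts it lists, among 24 subsets. Libraries of a group differed by more than counting error (chi-square per gene 20.2 to 463), and none was identical to another. Replicates are mice, so the spread is between animals, and counting error was small at these depths.

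Motifs were searched on both strands of RefSeq promoter windows (GRCm38.p6). Named genes were the 10 members, from each other list up to 5 genes past the threshold with the smallest p, and the 5 genes most like Hspa8, Hspa5 and Hspa1b. Members and lists were chosen with earlier results of these data known. Alternatives were DESeq2 1.42.0, median-of-ratios scaling, no filter, the lower of the fold thresholds in the study's text, all SIT libraries, mouse numbers found in both groups, leaving out each library in turn and, chosen after seeing the data, the mouse number as a block and leaving out the libraries with Hspb1 above 10 CPM. The edgeR fit of each comparison was tested on simulated counts with known changes. Computations outside R used Python 3.11.15, numpy 2.4.6 and scipy 1.17.1.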

Additional observations from a re-analysis of the deposited data

Results flagged for a closer look

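Among the 4 libraries of each SIT group, values were compared with Dixon's 95% critical value for 17 genes in 2 groups, 34 tests in all, of which chance flags about 1 in 20. A single library stood apart in 8. In ELE mouse NT6.304, left out of the comparisons, Dnajb5 was at 373 CPM, Fos at 621 CPM, Arc at 1133 CPM, Npas4 at 139 CPM and Atf3 at 21.7 CPM, all above the other ELE SIT libraries. In sedentary mouse NT7.2.4, also left out, Hspa8 was at 1048 CPM and Atf3 at 0.448 CPM, below the other 3, and Npas4 at 10.6 CPM, above them.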

How the results depend on the processing

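The labels' replicate numbers cannot be tied to the columns, which carry mouse numbers, so the start of the mouse number (TG7.3, TG9.1, TG9.2) stood in for a replicate block. Deviations from the group means correlated above 0.1 in 7 of 18 pairs of libraries with the same start (−0.096 to 0.57) and in 5 of 36 with different ones, so the values do not settle whether the numbers pair the mice. No member had under 466 counts in any library. Most differences between ELE and sedentary mice were smaller than 2 standard errors. No cause was tested for the changes below.

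Of the 10 members, the number called in SIT went from 0 to 1 (Hsph1) with all SIT libraries and to 2 (Hsph1, Dnajb5) with the mouse numbers found in both groups, and was 0 in both without NT6.304, a check chosen after seeing the data. On the left it went from 0 to 1 (Dnajb5, 0.43) with DESeq2 and without the filter on low counts. On the right it went from 0 to 1 (Dnajb5) with this block (0.41) and without the Hspb1-high libraries (0.62), both chosen after seeing the data. The block changed no other count of called members. Without those libraries it went from 1 to 0 with both sides together and from 0 to 1 for the interaction. Median-of-ratios scaling and the other fold threshold left all 49 values compared on the same side of the threshold with the same direction, and DESeq2 left 48 of 49. Leaving out 1 library at a time gave 0 to 1 members called on the left, on the right, with both sides together, between hemispheres and between isolation methods in sedentary and in ELE mice, and 0 in SIT and for the interaction. Where 1 sedentary SIT library was left, it was assumed to vary like the other libraries in the fit. Of the 115 relations, 1 passed in the separate libraries and 8 in SIT after subtracting group means, against 5 and 0, and pseudocount 5 changed neither count.

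With all SIT libraries and with the mouse numbers found in both groups, the log2 differences in SIT turned to 0.031 and 0.10 for Hspa8, 0.16 and 0.12 for Hsp90aa1 and 0.11 and 0.10 for Hsp90ab1. Without NT6.304 they were 0.088 for Hsp90aa1 and 0.039 for Hsp90ab1 with all other SIT libraries, and 0.13 for Hspa8, 0.0099 for Hsp90ab1, 0.036 for Dnajb1 and −0.034 for Hsf1 with the mouse numbers found in both groups. Without the Hspb1-high libraries those with both sides together turned to 0.044 for Hspa1a and 0.010 for Hspa1b, the interaction of Dnajb5 turned to −0.52 (−0.036 with the mouse-number block), and between isolation methods in ELE mice Hspa1b turned to −0.025 and Dnajb5 to 0.094, the last being 0.32 with all SIT libraries. With single libraries left out the differences in SIT ranged from −0.10 to 0.24 for Hspa1a, −0.078 to 0.20 for Hspa1b, −0.093 to 0.19 for Hspa5, −0.13 to 0.015 for Hspa8 and −0.062 to 0.0083 for Hsp90aa1. With both sides together they ranged from −0.15 to 0.031 for Hspa1a, −0.13 to 0.011 for Hspa1b and −0.028 to 0.071 for Hspa5, and for the interaction of Dnajb5 from −0.26 to 0.27. Between isolation methods they ranged from −0.18 to 0.10 for Hspa1b, −0.0072 to 0.15 for Hsph1 and −0.13 to 0.028 for Hsf1 in sedentary mice, and from −0.094 to 0.093 for Hsph1 and −0.13 to 0.040 for Dnajb5 in ELE mice.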

Other observations

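Of 6 clock genes, Arntl was higher and Dbp and Ciart were lower in ELE than in sedentary mice on both sides of the brain. With both sides together the log2 differences were 0.50 for Arntl (SE 0.0578, adjusted p = 0.00856 by edgeR), −0.94 for Dbp (SE 0.196, adjusted p = 0.628) and −0.77 for Ciart (SE 0.217, adjusted p = 0.902). In SIT 0 of the 6 were called.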
